A study of Mus musculus with 30 samples.

Results

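The caudal homeobox family of the mouse, Cdx1, Cdx2 and Cdx4, was followed in embryonic stem cell (ESC) clones with and without the product of a targeted kinase or phosphatase gene. The members were found by gene symbol alone, and all their probes were kept. The array carried 4 such probes among 25697, 2 for Cdx1 and 1 each for Cdx2 and Cdx4, for 3 of 18097 gene symbols. Of these, 3 probes passed the filter on detection, which asked for 3 or more arrays with a detection p below 0.05, as did 15151 probes in all, while the Cdx4 probe did not.

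Cdx proteins are homeodomain transcription factors related to Drosophila caudal. In the embryo they act at the posterior end, in the primitive streak and tail bud, where Wnt, FGF and retinoic acid signals switch them on and where they in turn activate Hox genes and sustain axis elongation. Cdx2 has further roles in the trophectoderm, which forms the placenta and where it opposes Pou5f1, and together with Cdx1 in the intestinal epithelium. Cdx4, an X-linked gene, is known for posterior patterning and embryonic blood formation.

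The clones derive from Ainv15, a mouse ESC line that carries the reverse tetracycline transactivator. Each rescue clone holds an shRNA against 1 endogenous transcript together with a doxycycline (Dox)-inducible copy which that shRNA cannot recognize, so that Dox at 1 μg/ml supplies the gene product and its removal takes it away. The 4 clones analysed here concern Bub1b, a spindle checkpoint kinase (Bub1b_R), Chek1, a DNA damage checkpoint kinase (Chek1_R), Ppm1g, a protein phosphatase that acts in pre-mRNA processing (Ppm1g_R), and Ppp2r1b, a scaffold subunit of protein phosphatase 2A (Ppp2r1b_R). The control clone Ctrl_R went through the same Dox treatment. The comparisons ask which transcripts change once the gene product is withdrawn, and how each clone differs from Ctrl_R in the same medium. RNA was taken from each of the 5 clones with Dox and after 5 days without it, on 3 arrays per condition and 30 arrays in all. The methods describe several independent rescue clones per gene, and the labels do not say which of them the arrays hold, nor whether the 3 arrays of a condition came from separate cultures. P-values therefore measure the spread between these arrays, which may be technical. The labels describe growth on mouse embryonic fibroblasts, and the methods describe the cultures with and without Dox as free of feeder cells.

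The promoters of Cdx2 and Cdx4 are shown because they set the most responsive member beside the one that stayed at background. Each sequence covers the 250 bases before the RefSeq start in build GRCm38.p6, with the octamer ATGCAAAT, the recognition sequence of POU factors such as Pou5f1, in capitals. Cdx2 lies on the minus strand at chr5:147307250-147307499 and Cdx4 on the plus strand at chrX:103321148-103321397.
Cdx2: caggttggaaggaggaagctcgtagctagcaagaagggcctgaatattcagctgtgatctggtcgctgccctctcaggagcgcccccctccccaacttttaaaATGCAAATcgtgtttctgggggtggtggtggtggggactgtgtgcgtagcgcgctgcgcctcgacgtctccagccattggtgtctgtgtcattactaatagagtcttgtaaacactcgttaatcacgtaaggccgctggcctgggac
Cdx4: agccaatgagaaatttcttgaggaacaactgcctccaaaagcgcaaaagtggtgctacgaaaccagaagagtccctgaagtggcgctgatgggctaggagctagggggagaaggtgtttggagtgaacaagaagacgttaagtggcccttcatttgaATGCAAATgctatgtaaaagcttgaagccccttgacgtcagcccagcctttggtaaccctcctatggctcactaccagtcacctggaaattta
Both windows held the octamer once, on the strand shown, beginning 147 bases before the start in Cdx2 and 93 bases before it in Cdx4. The octamer was looked for after these letters had been read. It occurred on either strand in 526 of 32851 windows of the same length (1.6%). The TCF/LEF site of Wnt signaling (CTTTGAT or CTTTGAA, 7.48% of windows) and the Cdx site TTTATG (10.8% of windows) had no match in either window. CCAAT (33.8% of windows) matched once in each, and none of these matches overlapped the octamer. A match describes the letters only.

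Between 11733 and 13685 probes were detected per array, and replicate arrays correlated at 0.99 or higher over the tested probes. Precision is limited by the number of arrays. By signal level there were 2 sets of arrays. In Bub1b_R and Ctrl_R (12 arrays) the lowest detected signal lay between 12.9 and 20.9, and on the other 18 arrays between 27.8 and 58.1. A comparison of Chek1_R, Ppm1g_R or Ppp2r1b_R with Ctrl_R crosses these sets, and there clone and array set cannot be told apart. A comparison within a clone stays inside 1 set, and so does that of Bub1b_R with Ctrl_R as far as signal level shows. The methods name earlier public array data among those used, and the Ctrl_R records carry older sample numbers than those of the 4 depleted clones. In each comparison with Ctrl_R, Bub1b_R included, clone and data set cannot be told apart. Of the targeted transcripts, Ppm1g fell by 1.25 on the log2 scale in Ppm1g_R on Dox withdrawal (limma, Benjamini-Hochberg adjusted p = 4.5e-09). Bub1b in Bub1b_R (-0.14) and Ppp2r1b in Ppp2r1b_R (0.20) did not pass the test. Chek1 went against its label. Its brightest tested probe was detected on 0 of 3 arrays with Dox and on 3 of 3 without it, a difference of at least 1.35-fold toward the arrays without Dox (adjusted p = 0.00115). According to the methods the rescue copies of Bub1b and Chek1 lack the part of the transcript that the shRNA targets. The files used here do not give the place each probe reads, so these probes may not see the rescue copy. Directions in this clone therefore hold for the arrays as labelled.

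Cdx2 rose on Dox withdrawal in all 4 depleted clones, from 2.31-fold in Ppm1g_R to 15.7-fold in the Chek1_R-labelled arrays. In Ctrl_R it stayed near the detection limit and its change did not pass the test. The deposited signals, which carry a background correction and no scaling between arrays, were 13.9, 23.1 and 6.5 on the 3 arrays of Ctrl_R with Dox and 27.5, 28.5 and 17.1 without it. Only 1 of the 3 arrays with Dox reached a detection p under 0.05, against all 3 without Dox, and the 2 ranges overlapped. In Bub1b_R the signals were 332.8, 285.1 and 246.1 with Dox and 1088.5, 1054.7 and 1384.5 without it. In the Chek1_R-labelled arrays they were 34.4, 68.5 and 55.8 with Dox, with 2 of 3 arrays detected, and 951.3, 1485.3 and 1188.1 without it. These arrays thus went from near the detection limit into the range of the other depleted clones without Dox. In Ppm1g_R the signals were 660.0, 902.5 and 1006.1 with Dox and 1662.9, 2045.3 and 1732.6 without it. In Ppp2r1b_R they were 147.2, 151.4 and 275.8 with Dox and 412.2, 461.2 and 542.3 without it. In each of these 4 clones every array without Dox exceeded every array with Dox, so that all 9 array pairs went the same way. Ranges that do not overlap were common, at 41.5% of the tested probes in Bub1b_R, 44.3% in Chek1_R, 37.8% in Ppm1g_R and 32.3% in Ppp2r1b_R, and 26.2% in Ctrl_R. A bulk array cannot tell more cells with Cdx2 from more Cdx2 RNA per cell.

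**Figure D1:**
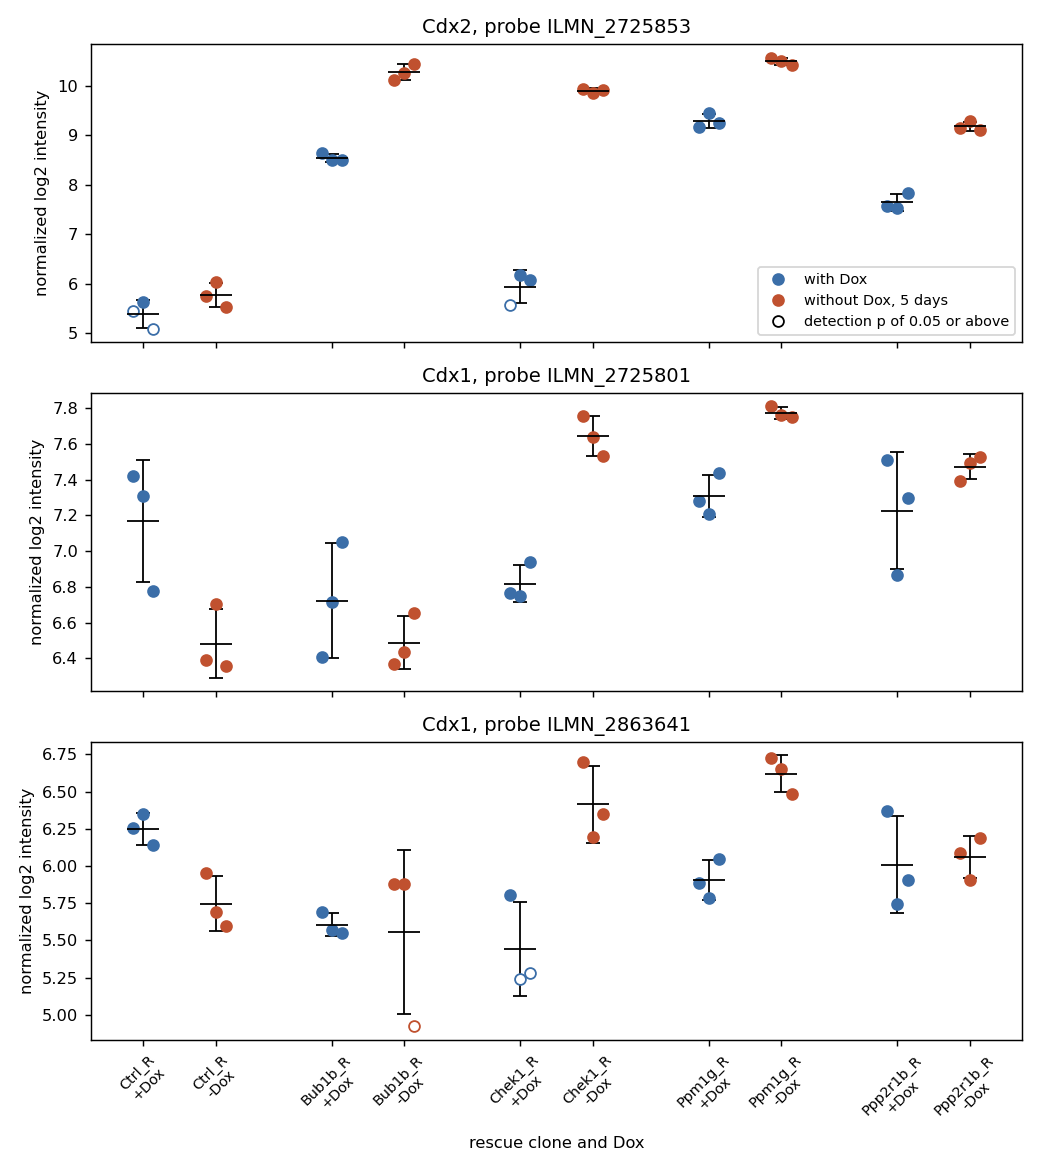
Normalized log2 intensity of Cdx2 and of both Cdx1 probes on each of the 30 arrays, by rescue clone and Dox. Bars give the mean and SD of 3 arrays and open circles have a detection p of 0.05 or above. Cdx2 is higher without Dox in each depleted clone and lies near the bottom of the scale in Ctrl_R, while both Cdx1 probes move over a far narrower range.

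After normalization the change in Cdx2 was 1.73 on the log2 scale in Bub1b_R (SE 0.15, adjusted p = 3.61e-09), 3.97 in the Chek1_R-labelled arrays (1.91e-16), 1.21 in Ppm1g_R (1.31e-06) and 1.54 in Ppp2r1b_R (3.83e-08). These p-values come from limma with Benjamini-Hochberg adjustment over all tested probes, and the SE is the same in each clone. A probe is called here at an adjusted p under 0.05 and a change of at least 1.5-fold. Cdx2 was called in 4 of 4 depleted clones, where 5.6% of tested probes were called in Bub1b_R, 9.27% in Chek1_R, 4.37% in Ppm1g_R and 4.82% in Ppp2r1b_R. Called higher were 2.94%, 4.49%, 2.3% and 2.77% in that order. Only 78 probes, 0.515% of those tested, were called higher in all 4. Among 15151 changes Cdx2 ranked 21 from the highest in Bub1b_R, 10 in the Chek1_R-labelled arrays, 23 in Ppm1g_R and 17 in Ppp2r1b_R. In Ctrl_R, where 1.1% of probes were called (0.706% higher and 0.396% lower), the change was 0.39 (95% CI 0.09 to 0.69, adjusted p = 0.109), with 8 of 9 array pairs higher without Dox. Relative to that in Ctrl_R, the change was larger by 1.35 in Bub1b_R (SE 0.21, adjusted p = 9.08e-05), 3.58 in the Chek1_R-labelled arrays (3.82e-12), 0.82 in Ppm1g_R (0.00919) and 1.15 in Ppp2r1b_R (0.00097). All 4 differences were called, where 5.15%, 8.99%, 5.27% and 3.28% of tested probes were. Without the further background correction of neqc, the normalization used here, the differences for Bub1b_R, Ppm1g_R and Ppp2r1b_R were not called.

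**Figure D2:**
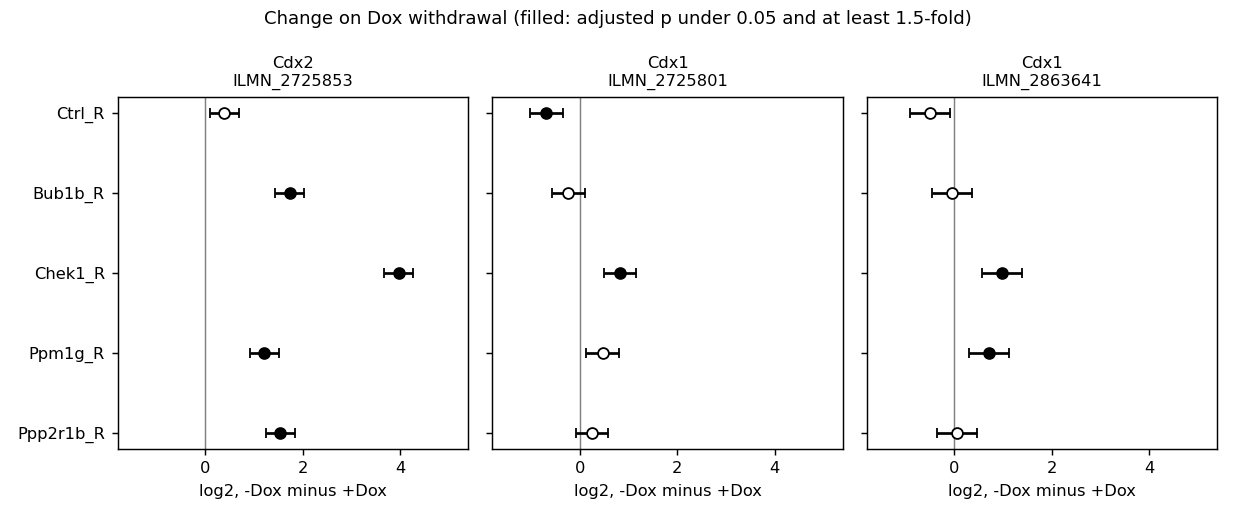
Change on Dox withdrawal (log2, without minus with Dox) of Cdx2 and of both Cdx1 probes in each clone, with 95% confidence intervals from the limma fit. Filled circles were called. Cdx2 is right of 0 and called in all 4 depleted clones, whereas the Cdx1 probes are left of 0 in Ctrl_R and called higher in the Chek1_R-labelled arrays.

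The size of the Cdx2 response differed between clones (limma F = 75.0, adjusted p = 1.29e-09, rank 45 of 15151), where 24% of all tested probes passed this test. Bub1b_R minus Chek1_R was -2.23 on the log2 scale (95% CI -2.66 to -1.81, adjusted p = 6.9e-08). The response in the Chek1_R-labelled arrays exceeded that in Ppm1g_R by 2.76 (6.76e-10) and that in Ppp2r1b_R by 2.43 (1.11e-08). These 3 differences were called, where 2.92%, 6.08% and 6.4% of tested probes were. Among the other clones no difference was called, where 1.95%, 2.47% and 5.12% of tested probes were. Bub1b_R minus Ppm1g_R was 0.53 (95% CI 0.10 to 0.95, adjusted p = 0.165), Bub1b_R minus Ppp2r1b_R was 0.19 (-0.23 to 0.62, adjusted p = 0.652) and Ppm1g_R minus Ppp2r1b_R was -0.33 (-0.76 to 0.09, adjusted p = 0.312).

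The level with Dox already set the clones apart. With Dox, Cdx2 exceeded Ctrl_R by 3.91 on the log2 scale in Ppm1g_R (adjusted p = 1.96e-16), 3.16 in Bub1b_R (2.11e-14) and 2.26 in Ppp2r1b_R (4.22e-12). In the Chek1_R-labelled arrays the difference was 0.55 (adjusted p = 0.00295), which stays under 1.5-fold and was not called. Of the tested probes 12.7% were called with Dox in Bub1b_R, 17.6% in Chek1_R, 29.1% in Ppm1g_R and 28.3% in Ppp2r1b_R. In all comparisons with Ctrl_R given here, clone and data set cannot be told apart. Cdx2 ranked 3 from the highest of 15151 differences in Ppm1g_R, 5 in Bub1b_R, 45 in Ppp2r1b_R and 1614 in the Chek1_R-labelled arrays. These ranks carry the same limit. Without Dox, Cdx2 exceeded Ctrl_R by 4.73 in Ppm1g_R (adjusted p = 6.43e-18), 4.51 in Bub1b_R (1.1e-17), 4.13 in the Chek1_R-labelled arrays (4.35e-17) and 3.41 in Ppp2r1b_R (1.21e-15). It was the highest of all 15151 differences in Ppm1g_R, and ranked 3, 11 and 10 in the other 3 clones, against 33.5%, 22.6%, 28.8% and 33.7% of probes called. Only 4.14% of probes were called higher than Ctrl_R in all 4 clones. These 8 comparisons share the Ctrl_R arrays. The differences for Bub1b_R lay between those of the other 3 clones in each medium.

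**Figure D3:**
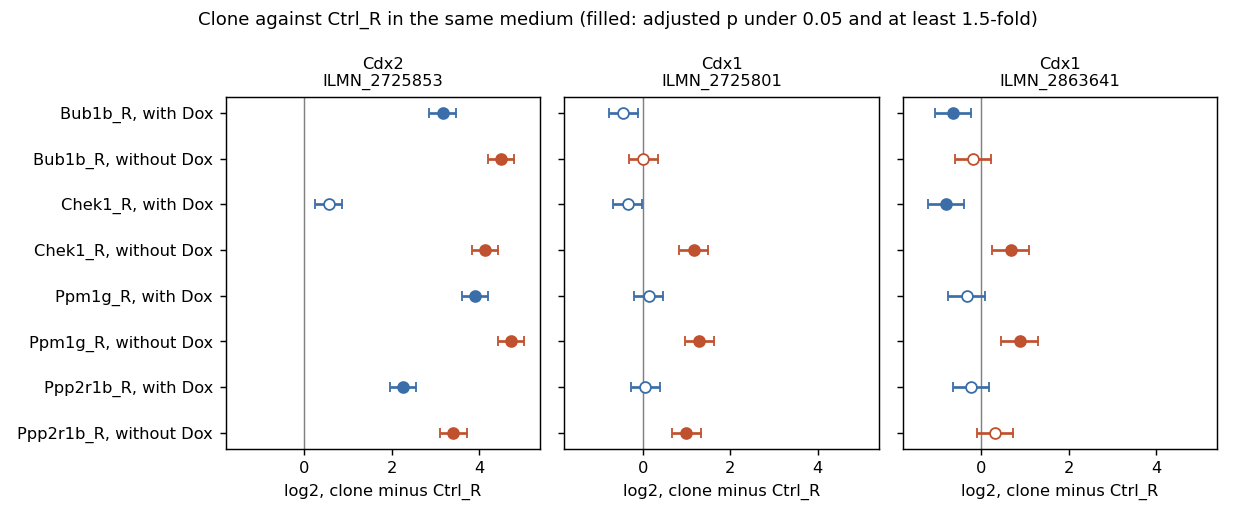
Difference of each depleted clone from Ctrl_R in the same medium (log2, clone minus Ctrl_R) for Cdx2 and both Cdx1 probes, with 95% confidence intervals, blue with Dox and red without it. Filled circles were called. Cdx2 exceeds Ctrl_R in 7 of the 8 comparisons by over 2 log2 units, the exception being the Chek1_R-labelled arrays with Dox.

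In order of mean level, Cdx2 stood at 10.50 ± 0.07 (normalized log2 intensity, SD, n = 3) in Ppm1g_R without Dox, 10.28 ± 0.16 in Bub1b_R without Dox, 9.91 ± 0.05 in Chek1_R without Dox and 9.29 ± 0.15 in Ppm1g_R with Dox. The lower conditions were Ppp2r1b_R without Dox at 9.18 ± 0.09, Bub1b_R with Dox at 8.55 ± 0.08 and Ppp2r1b_R with Dox at 7.64 ± 0.17. At the bottom were Chek1_R with Dox at 5.94 ± 0.33, Ctrl_R without Dox at 5.77 ± 0.25 and Ctrl_R with Dox at 5.39 ± 0.28. Neighbours in this order whose arrays overlapped were the upper 2 conditions, Ppm1g_R with Dox and Ppp2r1b_R without it, and the lowest 3 conditions in sequence. Cdx2 in Ppm1g_R with Dox and in Ppp2r1b_R without it thus did not differ beyond the spread of the arrays.

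Cdx1 gave smaller changes, and its direction differed between clones. It was called higher on both probes in the Chek1_R-labelled arrays, and on neither probe in Bub1b_R or Ppp2r1b_R. Probe ILMN_2725801 was detected on all 30 arrays. Its signals in the Chek1_R-labelled arrays were 101.1, 110.2 and 113.2 with Dox and 198.3, 296.8 and 209.7 without it, a normalized change of 0.82 on the log2 scale (SE 0.16, adjusted p = 0.000285). No array without Dox fell into the range of those with Dox. In Ctrl_R the signals were 89.4, 111.4 and 56.7 with Dox and 53.1, 54.0 and 41.6 without it. All 9 array pairs were lower without Dox after normalization, and the change of -0.69 (adjusted p = 0.00899) was called lower. That call was lost without Ctrl_R +Dox replicate 1, where the change was -0.56. In Ppm1g_R the signals were 165.0, 174.6 and 265.8 with Dox and 235.6, 303.5 and 266.4 without it, a change of 0.47 (adjusted p = 0.0375) that stayed under 1.5-fold. These deposited signals overlapped, and after normalization all 9 array pairs were higher without Dox. Bub1b_R ran from 55.8 to 80.6 with Dox and from 53.2 to 74.8 without it (-0.24, adjusted p = 0.323), and Ppp2r1b_R from 91.9 to 187.7 and from 120.0 to 179.7 (0.25, adjusted p = 0.284). In both clones the ranges overlapped.

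The other Cdx1 probe, ILMN_2863641, was detected on 27 of 30 arrays. In the Chek1_R-labelled arrays its signals were 44.4, 22.8 and 21.9 with Dox, with 1 of 3 arrays detected, and 85.7, 92.3 and 81.3 without it. Every array without Dox was higher, and the normalized change was 0.97 (SE 0.20, adjusted p = 0.000523). In Ppm1g_R the signals were 52.9, 52.1 and 88.6 with Dox and 102.7, 131.8 and 100.2 without it, again with no overlap, a change of 0.71 that was called (adjusted p = 0.0111). Bub1b_R (-0.04, adjusted p = 0.906) and Ppp2r1b_R (0.05, adjusted p = 0.88) stayed near 0. In Ctrl_R the signals were 33.1, 48.7 and 31.5 with Dox and 33.8, 19.7 and 18.5 without it. The change there was -0.50 (adjusted p = 0.137) with 0 of 9 array pairs higher after normalization, although the deposited signals overlapped. Of the 2 probes only ILMN_2725801 passed the test in Ctrl_R.

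Since both probes gave lower values in Ctrl_R without Dox, the Cdx1 change relative to Ctrl_R was larger than the change within a clone. On probe ILMN_2725801 it was 1.51 in the Chek1_R-labelled arrays (adjusted p = 3.12e-05), 1.15 in Ppm1g_R (0.00134) and 0.93 in Ppp2r1b_R (0.0118), all called, and 0.45 in Bub1b_R (adjusted p = 0.219), not called. On probe ILMN_2863641 it was 1.47 in the Chek1_R-labelled arrays (adjusted p = 0.000537) and 1.21 in Ppm1g_R (0.0055), both called. It was 0.56 in Ppp2r1b_R (adjusted p = 0.25) and 0.46 in Bub1b_R (adjusted p = 0.338), neither called, so that for Ppp2r1b_R the probes did not give the same call. The response differed between clones on both probes (F = 7.63, adjusted p = 0.00828, rank 1823 of 15151, and F = 6.14, adjusted p = 0.0191, rank 2464). Of all tested probes 24% passed this test. Bub1b_R minus Chek1_R was -1.06 (adjusted p = 0.00445) on ILMN_2725801 and -1.02 (0.0328) on ILMN_2863641. On the latter probe Chek1_R exceeded Ppp2r1b_R by 0.92 (adjusted p = 0.03), while on ILMN_2725801 that difference was 0.58 (adjusted p = 0.0922). Both calls between clones on ILMN_2863641 rested on single arrays. The call of Bub1b_R minus Chek1_R was lost without Bub1b_R -Dox replicate 3, where it was -0.70, and without Bub1b_R +Dox replicate 1 or 2, Chek1_R -Dox replicate 1 or Chek1_R +Dox replicate 2 or 3. That of Chek1_R minus Ppp2r1b_R was lost without Ppp2r1b_R +Dox replicate 1, where it was 0.74, and without Ppp2r1b_R -Dox replicate 2, Chek1_R -Dox replicate 1 or Chek1_R +Dox replicate 2 or 3.

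Against Ctrl_R without Dox, Cdx1 on probe ILMN_2725801 was higher by 1.29 in Ppm1g_R (adjusted p = 2.03e-07), 1.16 in the Chek1_R-labelled arrays (1.26e-06) and 0.99 in Ppp2r1b_R (9.44e-06). Of all tested probes 33.5%, 28.8% and 33.7% were called in that order, and Cdx1 ranked 544, 554 and 1170 from the highest of 15151. In Bub1b_R Cdx1 on this probe differed by 0.00 (95% CI -0.33 to 0.34). Probe ILMN_2863641 gave 0.87 in Ppm1g_R (0.000545, rank 1323 from the highest) and 0.67 in the Chek1_R-labelled arrays (0.00618, rank 1756), both called, 0.32 in Ppp2r1b_R (0.172) and -0.19 in Bub1b_R (0.459). Without Chek1_R -Dox replicate 1 the second of these was 0.53 and was not called. With Dox no difference on ILMN_2725801 was called. On ILMN_2863641 the clones lay below Ctrl_R, by -0.81 in the Chek1_R-labelled arrays (adjusted p = 0.00189) and -0.64 in Bub1b_R (0.0123), both called, where 17.6% and 12.7% of tested probes were. The difference of -0.34 in Ppm1g_R and that of -0.24 in Ppp2r1b_R did not pass. Cdx2 was thus far above Ctrl_R in Bub1b_R in both media, whereas Cdx1 was at or below the level of Ctrl_R there.

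Condition means of Cdx1 on ILMN_2725801 ran from 7.77 ± 0.03 in Ppm1g_R without Dox and 7.64 ± 0.11 in Chek1_R without Dox down to 6.49 ± 0.15 in Bub1b_R without Dox and 6.48 ± 0.19 in Ctrl_R without Dox. Neighbours in the order of the 10 conditions overlapped in their arrays except Chek1_R and Ppp2r1b_R without Dox. On ILMN_2863641 the order ran from 6.62 ± 0.13 in Ppm1g_R without Dox to 5.44 ± 0.31 in Chek1_R with Dox, and all neighbours overlapped.

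Cdx4 stayed at background. Its probe reached a detection p under 0.05 on 2 of 30 arrays, Bub1b_R without Dox replicate 3 (signal 22.9) and Ctrl_R without Dox replicate 1 (signal 19.6), and was not tested. Signals ran from -2.6 to 45.4. The highest, on Chek1_R without Dox replicate 2, missed the detection limit. The remaining arrays of Bub1b_R without Dox gave 8.8 and 11.2, and those of Ctrl_R without Dox 0.2 and 3.2. No condition had more than 1 array detected. Where the detection filter was left off, no change of the Cdx4 probe was called, and the change on Dox withdrawal lay between -0.13 in Ctrl_R and 0.34 in Bub1b_R. A probe not well above background gives only an upper bound on the transcript.

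**Figure D4:**
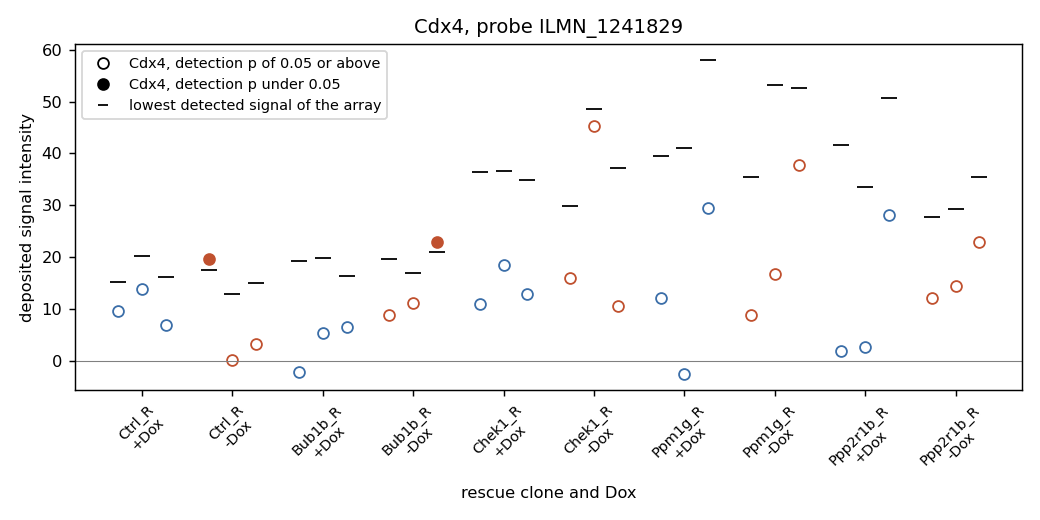
Deposited signal of the Cdx4 probe on each array (circles, blue with Dox and red without it), beside the lowest signal that was detected on the same array (black dashes). Filled circles have a detection p under 0.05. Only 2 of the 30 circles are filled.

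The genes whose pattern over the arrays was most like that of Cdx2 were Defcr-rs7 (Pearson's r = 0.983), Dusp4 (0.982), Klhl6 (0.978), D030013I16Rik (0.977) and LOC100044289 (0.976), over 30 arrays after each clone's mean was removed. The points share clones, media and normalization, so that any gene that answers Dox withdrawal in the depleted clones correlates with any other. Defcr-rs7 is a defensin-related transcript of the Paneth cell family, whose near-identical copies an array probe may not separate. In the Chek1_R-labelled arrays no array with Dox detected it, and without Dox its level was at least 30.7-fold higher (adjusted p = 1.13e-19). Dusp4 encodes a phosphatase of MAP kinases that is itself induced by their activity, and changed by 1.12 in Bub1b_R, 1.91 in the Chek1_R-labelled arrays, 0.84 in Ppm1g_R, 0.86 in Ppp2r1b_R and 0.14 in Ctrl_R. Klhl6 was undetected with Dox in the Chek1_R-labelled arrays and Ppp2r1b_R, and there at least 12.5-fold and 2.05-fold higher without it. LOC100044289 differed from Cdx2 in Ctrl_R, where it was undetected with Dox and at least 1.94-fold higher without it (adjusted p = 5.63e-10). The list depends on the measure: Spearman's correlation kept 1 of the 5 genes, correlation without removal of the clone means 2, and correlation over the 10 condition means 1. T (Brachyury) entered the 5 under each of these 3 measures.

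For Cdx1 the likeness was weaker. Slc1a4 (r = 0.786), Gna13 (0.756), Ttc17 (0.747), Suv39h1 (0.731) and Cd248 (0.726) were nearest to ILMN_2725801, and Cd248 (0.793), Suv39h1 (0.742), Dpagt1 (0.739), Pdlim2 (0.730) and BC003266 (0.730) to ILMN_2863641. Cd248, a membrane protein of stromal cells, and Suv39h1, a histone H3 lysine 9 methyltransferase, were on both lists. The 2 Cdx1 probes correlated with each other at 0.67, and with Cdx2 at 0.54 and 0.56, over the same 30 arrays.

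Genes that act upstream of Cdx in the embryo were followed with a list of Wnt, FGF, BMP and retinoid components. Shares called higher on Dox withdrawal, over all tested probes, were 2.94%, 4.49%, 2.3%, 2.77% and 0.706% in the order of clones below. In this and the later lists, a gene at background with Dox can only be called higher. Of 28 tested genes, 12 were called higher and 2 lower in Bub1b_R on Dox withdrawal, 13 and 2 in the Chek1_R-labelled arrays, 8 and 2 in Ppm1g_R, 7 and 0 in Ppp2r1b_R, and 1 and 1 in Ctrl_R. Their median change was 0.39 in Bub1b_R, 0.45 in the Chek1_R-labelled arrays, 0.44 in Ppm1g_R, 0.21 in Ppp2r1b_R and 0.07 in Ctrl_R, beside medians over all tested probes of -0.02 to 0.00. Among the ligands, Wnt5a rose in all 4 depleted clones, by 1.62 in Bub1b_R, 3.45 in the Chek1_R-labelled arrays, 1.34 in Ppm1g_R and 1.33 in Ppp2r1b_R, with 0.02 in Ctrl_R. Wnt5b rose by 1.69, 1.27 and 1.17 in Bub1b_R, Ppm1g_R and Ppp2r1b_R, and without Dox was at least 2.72-fold higher in the Chek1_R-labelled arrays, where no array with Dox detected it. Wnt3, a ligand required for the primitive streak, rose by 1.33 in Bub1b_R, 2.04 in the Chek1_R-labelled arrays and 0.95 in Ppm1g_R, and gave 0.57 in Ppp2r1b_R, which was not called. Wnt8a rose by 1.46 in the Chek1_R-labelled arrays, 1.15 in Ppm1g_R and 0.64 in Ppp2r1b_R, with 0.39 in Bub1b_R not called.

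Downstream of Wnt, the feedback genes Axin2 and Sp5 were called. Axin2, a scaffold of the β-catenin destruction complex, rose by 0.85 in Bub1b_R, 1.79 in the Chek1_R-labelled arrays and 0.60 in Ppm1g_R, with 0.40 in Ppp2r1b_R under 1.5-fold. Sp5, a zinc finger repressor, rose by 1.47, 0.66 and 0.76 in Bub1b_R, Ppm1g_R and Ppp2r1b_R, and in the Chek1_R-labelled arrays as well (adjusted p = 1.24e-17). The Wnt receptor Fzd10 rose by 0.76 in Bub1b_R, 1.40 in the Chek1_R-labelled arrays and 0.73 in Ppp2r1b_R. Of the FGF ligands, Fgf8, which is made in the primitive streak, rose by 1.41 in Bub1b_R, 3.61 in the Chek1_R-labelled arrays and 1.70 in Ppp2r1b_R, and also in Ctrl_R by 0.76 (adjusted p = 1.53e-07). In Ppm1g_R it gave 0.43, under 1.5-fold. Fgf4, the ligand that ESCs themselves make, went the other way, with -0.96 in Bub1b_R, -0.91 in the Chek1_R-labelled arrays and -0.75 in Ppm1g_R. Cyp26a1, which degrades retinoic acid in the tail bud, rose by 1.22 in Bub1b_R, and without Dox was at least 1.33-fold and 1.20-fold higher in the Chek1_R-labelled arrays and Ppm1g_R, where no array with Dox detected it. The other genes called lower, outside the rule for named genes, were Rxra in Bub1b_R (-0.81) and Ppm1g_R (-0.90), Fgfr2 in the Chek1_R-labelled arrays (-0.61) and Spry4 in Ctrl_R (-0.59). Bmp4 rose by 0.63 in Bub1b_R, 1.42 in the Chek1_R-labelled arrays and 0.71 in Ppp2r1b_R.

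Transcription factors and secreted factors of the primitive streak and posterior axis rose in part. Of 12 tested, 9 were called higher in Bub1b_R, 9 in the Chek1_R-labelled arrays, 7 in Ppm1g_R, 5 in Ppp2r1b_R and 1 in Ctrl_R, and Dll1, a Notch ligand, was called lower in Ppm1g_R (-0.89). The median change was 1.86, 2.21, 0.89, 0.39 and 0.01 in that order of clones. Called higher over all tested probes were 2.94%, 4.49%, 2.3%, 2.77% and 0.706% in the same order. Genes at background with Dox, such as Mixl1 in the Chek1_R-labelled arrays, can only be called higher. T, the mesoderm factor whose haploinsufficiency shortens the tail, rose in all 5 clones, by 2.31 in Bub1b_R, 4.44 in the Chek1_R-labelled arrays, 1.05 in Ppm1g_R, 1.90 in Ppp2r1b_R and 0.75 in Ctrl_R (adjusted p = 0.000123). Evx1, a posterior streak homeobox gene, rose by 2.38, 4.10, 1.60 and 1.54 in the 4 depleted clones and gave -0.28 in Ctrl_R. The homeobox gene Msx1, a target of BMP, rose by 1.98, 2.81, 1.01 and 1.07. Rspo3, which potentiates Wnt receptors, rose by 1.78 in Bub1b_R, 1.00 in Ppm1g_R and 2.06 in Ppp2r1b_R and without Dox was at least 11.2-fold higher in the Chek1_R-labelled arrays. Mixl1 rose by 3.24 in Bub1b_R and without Dox was at least 3.67-fold and 3.42-fold higher in the Chek1_R-labelled arrays and Ppm1g_R. Mesp1, a factor of early mesoderm, rose by 2.35 in Bub1b_R and was at least 3.47-fold and 1.31-fold higher in the Chek1_R-labelled arrays and Ppm1g_R. In Ppp2r1b_R neither Mixl1 nor Mesp1 was detected on any array, although Cdx2, T and Rspo3 rose there. The 5 genes called in Ppp2r1b_R include Eomes (0.64), which no array of that clone detected.

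Hox genes, which Cdx factors activate in the embryo, were detected in part. Of 39 on the array 20 were tested, and 6 were called higher in Bub1b_R, 8 in the Chek1_R-labelled arrays, 5 in Ppm1g_R, 6 in Ppp2r1b_R and 1 in Ctrl_R, with 0 called lower in each. Their median change was 0.28 in Bub1b_R, 0.51 in the Chek1_R-labelled arrays, 0.43 in Ppm1g_R, -0.04 in Ppp2r1b_R and 0.04 in Ctrl_R, so that in Ppp2r1b_R the middle gene of the list did not move up. Called higher over all tested probes were 2.94%, 4.49%, 2.3%, 2.77% and 0.706% in that order of clones. A Hox gene at background with Dox can only be called higher, so the 0 called lower is partly set by the detection filter. The Hox genes called in at least 3 clones were Hoxa7, Hoxc6, Hoxc9, Hoxd4, Hoxd8, Hoxd9 and Hoxd10. Hoxd9 rose by 1.07 in Bub1b_R, 0.69 in Ppm1g_R and 1.08 in Ppp2r1b_R, and without Dox was at least 4.97-fold higher in the Chek1_R-labelled arrays. Hoxc9 rose by 0.81 in Bub1b_R, 3.10 in the Chek1_R-labelled arrays, 1.31 in Ppp2r1b_R and 0.63 in Ctrl_R (adjusted p = 0.0102). Hoxd8 rose by 0.91 in Bub1b_R, 2.38 in the Chek1_R-labelled arrays and 1.35 in Ppp2r1b_R. Hoxa7, a member of the trunk group, rose by 2.14 in the Chek1_R-labelled arrays, 0.81 in Ppm1g_R and 0.79 in Ppp2r1b_R. Hoxc6, Hoxd10 and Hoxd4 were undetected with Dox in the Chek1_R-labelled arrays, and there at least 7.75-fold, 2.27-fold and 1.92-fold higher without it. With Dox, 7 of the 20 Hox genes were called higher than Ctrl_R in Bub1b_R, 8 in Ppm1g_R, 7 in Ppp2r1b_R and 1 in the Chek1_R-labelled arrays, and 0 were called lower in each. Over all tested probes 6.6%, 14.8%, 14.2% and 9.75% were called higher in that order, and the median difference of the Hox genes was 0.30, 0.47, 0.18 and 0.05. These comparisons share the Ctrl_R arrays.

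**Figure D5:**
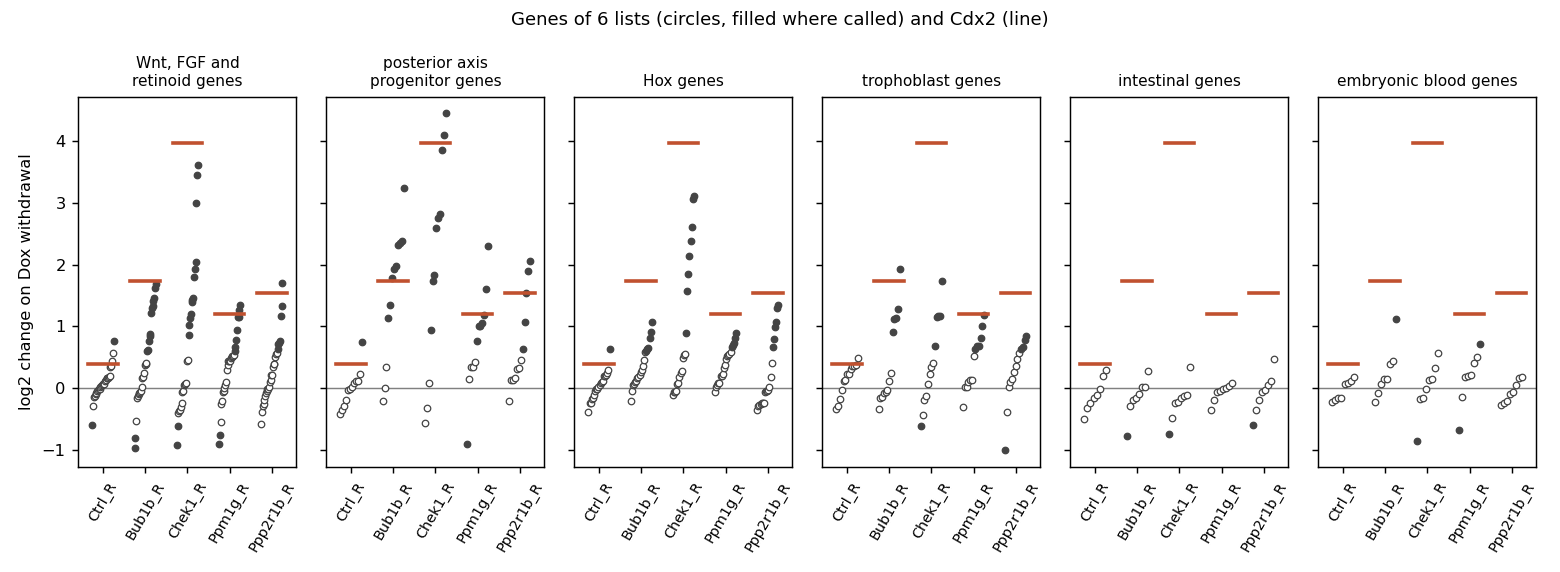
Log2 change on Dox withdrawal of each tested gene (circles, filled where called) in 6 gene lists and of Cdx2 (orange-red line), by clone. Filled circles above 0 are common among Wnt, FGF and retinoid genes, posterior axis genes and Hox genes of the depleted clones. None of the 8 tested intestinal genes is called higher in any clone, where 0.706% to 4.49% of all tested probes are.

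Trophoblast genes moved in part. Of 13 tested among 20 listed, 5 were called higher in Bub1b_R, 5 in the Chek1_R-labelled arrays, 6 in Ppm1g_R, 4 in Ppp2r1b_R and 0 in Ctrl_R. The median change was 0.12, 0.35, 0.52, 0.37 and 0.22 in that order. Called higher over all tested probes were 2.94%, 4.49%, 2.3%, 2.77% and 0.706% in the same order. Where a gene lay at background with Dox, as Plac1 did, it can only be called higher. Elf5, Hand1, Prl3d1, Esx1, Tpbpa and Gcm1 did not pass the filter, and Tfap2c was not on the array. Ascl2, Tead4, Krt7, Dlx3 and Yap1 were called in no clone. The 4 genes called higher in Ppp2r1b_R include Eomes (0.64), which no array of that clone detected. Krt8 and Krt18, keratins of simple epithelia, rose by 1.13 and 0.90 in Bub1b_R, 1.17 and 0.69 in the Chek1_R-labelled arrays, 0.82 and 0.63 in Ppm1g_R, and 0.79 and 0.67 in Ppp2r1b_R. In Ctrl_R they gave 0.49 and 0.37, under 1.5-fold. Gata3 rose by 1.14 in Bub1b_R, 1.17 in the Chek1_R-labelled arrays and 0.85 in Ppp2r1b_R. Eomes, which is shared by trophoblast and primitive streak, was undetected with Dox in Bub1b_R and the Chek1_R-labelled arrays and at least 2.53-fold and 2.08-fold higher without it, and it rose by 1.18 in Ppm1g_R. Plac1 was at least 1.73-fold, 1.27-fold and 1.25-fold higher without Dox in Bub1b_R, the Chek1_R-labelled arrays and Ppm1g_R, with no array detected with Dox. The members called in at least 3 clones are thus epithelial keratins, Gata3, Plac1 and the shared gene Eomes. Called lower were Fgfr2 in the Chek1_R-labelled arrays (-0.61) and Sox21 in Ppp2r1b_R (adjusted p = 6.47e-09). The summed level of the 6 tested of 10 trophoblast markers (normalized intensity, not log) was 4632-4750 with Dox and 9445-9742 without it in Bub1b_R, 5411-5884 and 10831-11251 in the Chek1_R-labelled arrays, 8125-8630 and 13240-14699 in Ppm1g_R, 8168-8837 and 13903-14385 in Ppp2r1b_R, and 2281-2437 and 2965-3032 in Ctrl_R. This sum was thus higher without Dox in every clone, Ctrl_R included. It follows its brightest markers and does not show that each marker rose. Eomes, for one, had a mean of 6.81 (normalized log2 intensity) in Bub1b_R without Dox, and Ascl2 and Krt7 were called in no clone. The part of this sum in the Cdx2 result was not tested.

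The listed intestinal genes were not called higher, although Defcr-rs7, which is outside the list, had the pattern nearest to that of Cdx2. Of 8 tested among 22 listed, 0 were called higher in any clone, and 1 was called lower in each of 3 clones, Lgals4 in Bub1b_R (-0.77), Krt20 in the Chek1_R-labelled arrays (-0.73) and Hnf4a in Ppp2r1b_R (-0.59). Their median change lay between -0.19 in the Chek1_R-labelled arrays and -0.03 in Ppm1g_R. Called higher over all tested probes were 2.94% in Bub1b_R, 4.49% in the Chek1_R-labelled arrays, 2.3% in Ppm1g_R, 2.77% in Ppp2r1b_R and 0.706% in Ctrl_R. With 8 tested genes, here and in the blood list that follows, counts of 0 or 1 cannot be set apart from these shares. Of 8 tested genes of embryonic blood, Lmo2 was called higher in Bub1b_R (1.12) and lower in Ppm1g_R (-0.67), Runx1 higher in Ppm1g_R, where no array with Dox detected it, and Itga2b lower in the Chek1_R-labelled arrays (-0.85). The other ParaHox genes Gsx1, Gsx2 and Pdx1, homeobox genes related to the Hox clusters, were on the array but none passed the detection filter.

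The genes next to the members on the chromosome were read from the RefSeq order. Of the 3 genes on each side of Cdx2, Gsx1, Pdx1, Urad, Flt3 and Pan3 did not pass the filter. Polr1d, an RNA polymerase subunit, was tested and changed by between -0.06 and 0.17 over the 5 clones, with none called. Around Cdx1, 5 of 6 neighbours were tested. Pdgfrb, a receptor of platelet-derived growth factor, was called higher in the Chek1_R-labelled arrays (0.61, adjusted p = 0.000448) and in Ppp2r1b_R (0.73, adjusted p = 0.000137), and gave 0.35 in Bub1b_R, -0.11 in Ppm1g_R and -0.24 in Ctrl_R. Arsi, Camk2a, Slc6a7 and Csf1r were not called in any clone. Around Cdx4 the gene Chic1 alone was tested, and its changes lay between -0.18 and 0.17.

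Markers of other cell types were followed beside these changes. The ESC markers were present throughout: 8 of 9 were tested and all 8 were detected on every array of each condition. Their summed level was 38718-39261 with Dox and 29976-30679 without it in Bub1b_R, 40627-42068 and 33200-34607 in the Chek1_R-labelled arrays, 43987-45209 and 37890-38374 in Ppm1g_R, 34690-35579 and 23202-24065 in Ppp2r1b_R, and 42979-45333 and 40128-41079 in Ctrl_R. Over these arrays Pou5f1, which Cdx2 opposes in trophectoderm, changed by -0.16 in Bub1b_R, -0.31 in the Chek1_R-labelled arrays, -0.48 in Ppm1g_R, -0.53 in Ppp2r1b_R and -0.19 in Ctrl_R. None was called, since the falls that passed the limma test stayed under 1.5-fold. These were in the Chek1_R-labelled arrays (adjusted p = 0.00882), Ppm1g_R (0.000239) and Ppp2r1b_R (9.06e-05). Of the ESC markers Utf1 was called lower in 3 clones, by -0.63 in Bub1b_R, -0.80 in the Chek1_R-labelled arrays and -0.68 in Ppp2r1b_R. Zfp42 (-0.80) and Esrrb (-0.83) were called lower in Ppp2r1b_R alone. The 6 tested of 9 fibroblast feeder markers had a summed level of 906-993 with Dox and 1070-1120 without it in Bub1b_R, 693-758 and 867-942 in the Chek1_R-labelled arrays, 605-650 and 678-720 in Ppm1g_R, 739-779 and 895-1006 in Ppp2r1b_R, and 868-944 and 918-946 in Ctrl_R. Col1a1 and Dcn were called higher in at least 3 clones, by 1.06 for Col1a1 in the Chek1_R-labelled arrays, 0.91 in Ppm1g_R and 1.03 in Ppp2r1b_R, and by 0.68 for Dcn in Bub1b_R. Dcn was undetected with Dox in the other 3 depleted clones, and without it at least 1.91-fold higher in the Chek1_R-labelled arrays, 1.25-fold in Ppm1g_R, where 2 of 3 arrays detected it, and 1.31-fold in Ppp2r1b_R. Twist2 was called higher in Bub1b_R (0.79) and the Chek1_R-labelled arrays (1.11), whereas Thy1 was called lower in the Chek1_R-labelled arrays (-0.81, adjusted p = 1.25e-09) and in Ppm1g_R (-0.61, adjusted p = 4.5e-07). Col3a1 and Fbln2 were not called in any clone. Of the other feeder markers Col1a2, Postn and Lum did not pass the filter. The part of these markers in the Cdx results was not tested.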

How the data were processed

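The study measured total RNA of 5 rescue clones, each with and without Dox, on Illumina mouse WG-8 arrays. The authors deposited for each probe and array an intensity with a background correction and without scaling between arrays, and a detection p-value. The submitters' processing notes name lumi. On 2 arrays some detection p-values had become dates, 46 in Ppm1g_R without Dox replicate 2 and 14 in Bub1b_R without Dox replicate 2. In the first 28 and in the second 6 could be read back, and 18 and 8 were taken from the probe of nearest signal, and none belonged to a Cdx probe.

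Intensities were normalized by neqc (offset 16, all 30 arrays) in limma 3.58.1 with R 4.3.3 and statmod 1.5.0, on the log2 scale. This adds a background correction to the one that the deposited signals already carry. The 15151 probes that 3 or more arrays detected (p below 0.05) entered 1 fit of 10 condition means with eBayes (20 residual and 3.38 prior degrees of freedom). Adjustment followed Benjamini and Hochberg within a contrast, over all tested probes. Comparisons were without against with Dox in a clone, that change minus the change in Ctrl_R, each clone against Ctrl_R with and without Dox, and the change between the 4 depleted clones (an F-test and 6 pairs). A gene undetected on every array of a condition is given as at least N-fold, the bright mean against the lowest detected signal of each dim array, or the probe's own value where higher. Scripts were tested on simulated arrays. Alternatives were median scaling, an offset of 50, and the deposited signals without the further correction of neqc (values below 1 raised to 1). Others were no detection filter, a stricter one (p below 0.01 throughout a condition of 3 arrays, 12372 probes) and only the arrays compared. Also run were a replicate block, a limit of 2-fold or none, the methods' t-test, normalization within each array set, and leaving out each array.

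The members and the gene lists were chosen with earlier results of these data known. All member probes are named, with the 5 genes nearest in pattern to each tested probe, the list genes called in at least 3 of 5 clones, and Pou5f1 and the targeted genes as a check. The genes beside the members were added by position. The brightest probe stands for a list gene. Promoter windows come from RefSeq (GRCm38.p6), for 2 of the 3 members. Protein and probe sequences were not used here.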

Additional observations from a re-analysis of the deposited data

Results flagged for a closer look

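The change of Cdx2 on Dox withdrawal differed from that in Ctrl_R by a test of the difference itself (limma, Benjamini-Hochberg adjusted) in each depleted clone, by 1.35 on the log2 scale in Bub1b_R, 3.58 in the Chek1_R-labelled arrays, 0.82 in Ppm1g_R and 1.15 in Ppp2r1b_R. Between depleted clones the Cdx2 change differed for Bub1b_R minus Chek1_R (-2.23), Chek1_R minus Ppm1g_R (2.76) and Chek1_R minus Ppp2r1b_R (2.43).

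For Cdx1 on probe ILMN_2725801 the change minus that in Ctrl_R was 1.51 in the Chek1_R-labelled arrays, 1.15 in Ppm1g_R and 0.93 in Ppp2r1b_R, and Bub1b_R minus Chek1_R was -1.06. On probe ILMN_2863641 the corresponding values were 1.47 in the Chek1_R-labelled arrays and 1.21 in Ppm1g_R, and between clones -1.02 for Bub1b_R minus Chek1_R and 0.92 for Chek1_R minus Ppp2r1b_R. All comparisons with Ctrl_R share its 6 arrays. The level of Chek1 itself went against the label of its clone, and this touches each difference that involves Chek1_R.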

How the results depend on the processing

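The calls of Cdx2 within a clone and against Ctrl_R kept their direction and side of the threshold under each alternative run, with the exceptions given here. Under a 2-fold limit, calls were lost for Cdx2 in Ppm1g_R minus Ctrl_R (0.82). For Cdx1 on ILMN_2725801 they were lost for the change in Chek1_R (0.82) and Ctrl_R (-0.69), in Ppp2r1b_R minus Ctrl_R (0.93) and for Ppp2r1b_R against Ctrl_R without Dox (0.99). On ILMN_2863641 they were lost for Bub1b_R (-0.64) and Chek1_R (-0.81) against Ctrl_R with Dox, Chek1_R (0.67) and Ppm1g_R (0.87) without Dox, the change in Chek1_R (0.97) and Ppm1g_R (0.71), and Chek1_R minus Ppp2r1b_R (0.92). With no fold limit, Cdx2 in Chek1_R against Ctrl_R with Dox (0.55), and on ILMN_2725801 the change in Ppm1g_R (0.47) and Bub1b_R against Ctrl_R with Dox (-0.45), were called.

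Without the further background correction of neqc, Cdx2 minus Ctrl_R was lost in Bub1b_R (0.96), Ppm1g_R (0.41) and Ppp2r1b_R (0.81). Chek1_R against Ctrl_R with Dox (1.04) was called. On ILMN_2863641 lost calls were -0.92 (Bub1b_R against Ctrl_R with Dox), 0.90 and 1.15 (Chek1_R and Ppm1g_R without Dox), 0.91 (change in Ppm1g_R), 1.60 (minus Ctrl_R), -2.18 (Bub1b_R minus Chek1_R), 1.43 (Chek1_R minus Ppp2r1b_R) and F = 3.24. An offset of 50 lost the change of ILMN_2725801 in Ctrl_R (-0.53) and, on ILMN_2863641, Bub1b_R (-0.41) and Chek1_R (-0.50) with Dox, Chek1_R without Dox (0.45) and the change in Ppm1g_R (0.49). Median scaling called Cdx2 in Bub1b_R minus Ppm1g_R (0.79) and turned Cdx1 on ILMN_2725801 in Ppp2r1b_R against Ctrl_R with Dox, uncalled, to -0.012. Under median scaling the median of all probes in that clone against Ctrl_R was -0.18 in both media, beside -0.04 in the main run. The causes were not tested.

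A fit of only the arrays compared, and the methods' t-test, each lost -0.69 and 0.93 on ILMN_2725801 (Ctrl_R, and Ppp2r1b_R minus Ctrl_R) and -1.02 and 0.92 on ILMN_2863641. The t-test also lost 0.97 (ILMN_2863641, Chek1_R) and, for Cdx2, 0.82 (Ppm1g_R minus Ctrl_R). For the change on Dox withdrawal in Bub1b_R, 4959 probes passed the methods' t-test at an unadjusted p under 0.05 and 2467 after Benjamini-Hochberg adjustment. Both counts are without a fold limit, unlike the calls. Same-numbered arrays of a clone did not deviate together (r from -0.0835 to 0.131), and with a replicate block 72 of 72 member results kept their call, 849 probes being called in Bub1b_R with and without it. No detection filter and the stricter filter changed no call of a member. Normalization within array sets was run only for the change on Dox withdrawal within a clone, and these 15 member results kept their call. It was not run for the comparisons with Ctrl_R or between clones, so it says nothing on calls that cross the sets. Counting a list gene as called where any of its probes was changed some calls of list genes. The upstream list went from 13 higher and 2 lower to 16 called in the Chek1_R-labelled arrays (Dusp6 added) and from 8 and 2 to 12 in Ppm1g_R (Fzd10 and Dusp6 added), and the trophoblast list from 4 and 1 to 6 in Ppp2r1b_R (Id2 added). Dppa4 in the Chek1_R-labelled arrays and Sox2 in Ctrl_R were called in the same way, and the other list counts stayed as they were. Of the 5 genes nearest to Cdx2, 1, 2 or 1 were shared under Spearman, uncentred arrays and condition means, and 3, 0 or 0 for each Cdx1 probe.

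Leaving out single arrays changed no Cdx2 call but Chek1_R against Ctrl_R with Dox (0.40 to 0.74), called without either of 2 arrays. On ILMN_2725801 the change in Ctrl_R (-0.88 to -0.56) was lost in 1 case, and Bub1b_R against Ctrl_R with Dox (-0.64 to -0.29), Bub1b_R minus Ppm1g_R (-0.86 to -0.54) and Chek1_R minus Ppp2r1b_R (0.44 to 0.76) were called in 1 or 2. On ILMN_2863641 Bub1b_R minus Chek1_R (-1.20 to -0.70) was lost in 6 of 12 cases, Chek1_R minus Ppp2r1b_R (0.74 to 1.10) in 5 of 12 and Chek1_R against Ctrl_R without Dox (0.53 to 0.78) in 1, and Bub1b_R minus Ctrl_R (0.30 to 0.77) was called in 1. Uncalled values near 0 changed sign: on ILMN_2725801 against Ctrl_R, Bub1b_R without Dox (-0.080 to 0.11), Ppm1g_R (-0.056 to 0.26) and Ppp2r1b_R (-0.14 to 0.24) with Dox, and on ILMN_2863641 Bub1b_R without Dox (-0.35 to 0.13), the change in Bub1b_R (-0.20 to 0.27) and Ppp2r1b_R (-0.077 to 0.24) and Bub1b_R minus Ppp2r1b_R (-0.28 to 0.22). Cdx4 and ILMN_2863641 are limited by signal over background, and Cdx2 in Ctrl_R with Dox was detected on 1 of 3 arrays.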
